A study of Mus musculus with 9 samples.

Results

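The actomyosin and serum response factor (SRF) contractile genes are 34 genes of actin filaments, non-muscle and smooth muscle myosin, the proteins that decorate, crosslink and anchor those filaments, 2 intermediate filament proteins, and SRF itself. They were taken by symbol from a table of ribosome footprint counts that holds 55359 genes, and all 34 were found. All 34 also passed the filter on low counts that left 14714 genes for testing. The cells were mouse preadipocytes of inguinal white adipose tissue (iWAT), the fat depot under the skin of the groin, and the study followed their differentiation into beige adipocytes, fat cells able to burn lipid and give off heat. Day 0 cells were not induced. Day 4 and day 8 cells had been given an induction medium with insulin, rosiglitazone, triiodothyronine, dexamethasone, indomethacin and a phosphodiesterase inhibitor (isobutylmethylxanthine), which after 2 days was exchanged for medium that lacked the last 3 of these. Each day had 3 libraries. No strain, genotype, sex or age is given in the labels, and they do not say whether replicates came from separate animals or separate cultures, so a p-value here covers only the spread among libraries, which may be technical.

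Actin filaments and bipolar filaments of myosin II make up the stress fibres that let a spread cell pull on its matrix. Their genes share a transcription factor, SRF, which binds a short DNA element called the CArG box. Free actin monomers hold the SRF partners MRTF-A and MRTF-B in the cytoplasm, and when monomers are used up by filament assembly the partners enter the nucleus and switch on actin, myosin and filament-binding genes. Preadipocytes are spread, fibroblast-like cells with stress fibres, and fat cells are rounded cells with actin mainly at their edge. A footprint count combines how much of an mRNA there is with how many ribosomes sit on it, and RNA levels were not analysed here. In bulk cultures, fewer cells of a type and less RNA per cell cannot be told apart.

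The 9 libraries held 30823028 to 38994892 counts. Levels are given as CPM, counts scaled to a common library size with TMM factors, always in the order of replicates 1, 2 and 3. The labelled cell type was checked with listed markers. The sum of 7 preadipocyte genes was 2426 to 2589 CPM at day 0, 797 to 1822 CPM at day 4 and 531 to 728 CPM at day 8. Pdgfrb alone held 1543 to 1649 CPM of that sum at day 0, 241 to 545 CPM at day 4 and 224 to 294 CPM at day 8. The sum of 6 fat cell genes was 211 to 275 CPM, 31889.5 to 49703 CPM and 47842 to 51193 CPM on the same days. A pair of libraries stood apart. On the first principal component, which held 75.9% of the variance, day 4 replicate 2 lay at 12.8 against 64.8 and 65.4 for replicates 1 and 3, and day 8 replicate 3 lay at 62.1 against 85.5 and 85.8 for replicates 1 and 2. Day 0 libraries lay between -127 and -124. Day 4 replicate 2 was also the library with the most preadipocyte and the least fat cell marker counts of its day. Counts of called members are therefore given with and without this pair of libraries.

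The CArG box is shown first because it is the DNA element that SRF binds. The members were listed as contractile and SRF target genes beforehand, so the shares below describe that list. RefSeq promoter windows, 250 bases before to 50 bases after each annotated start in build GRCm38.p6, were matched by symbol for 29 of the 34 members; Actg2, Actb, Tagln, Myh11 and Actn3 are named only. A CArG box was searched as 2 C, a core of 6 bases that are each A or T, and 2 G, a pattern that reads the same on both strands. It was in a window of 6 of the 29 members (20.7%), against 488 of 27025 genes with a window (1.81%). With 1 core base allowed to be C or G, 10 members (34.5%) and 3050 genes (11.3%) had one. The 6 members with the strict box are printed below, with the stretches of Acta2 that hold a box with 1 such core base; each run has 30 bases, reads 5′ to 3′ on the strand of the gene, and has the box in capitals.

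Myl9: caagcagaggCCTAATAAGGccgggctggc
Cnn2: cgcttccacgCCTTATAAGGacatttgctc
Myl6: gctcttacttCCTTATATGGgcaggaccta
Actg1: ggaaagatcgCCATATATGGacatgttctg
Vcl: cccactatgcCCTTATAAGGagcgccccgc
Srf: CCATATAAGGagcggcctcgCCATAAAAGG
Acta2, distal: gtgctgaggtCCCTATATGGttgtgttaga
Acta2, proximal: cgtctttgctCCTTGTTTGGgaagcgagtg

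These runs lie at chr2:156775293-156775322 on the plus strand for Myl9, chr10:79988534-79988563 on the plus strand for Cnn2, chr10:128493040-128493069 on the minus strand for Myl6, chr11:120348566-120348595 on the minus strand for Actg1, chr14:20929161-20929190 on the plus strand for Vcl and chr17:46556215-46556244 on the minus strand for Srf. Those of Acta2 lie at chr19:34255438-34255467 and chr19:34255388-34255417 on the minus strand. All are in the flank before the annotated start: the box begins 161 bases before it in Myl9, 56 in Cnn2, 50 in Myl6, 90 in Actg1 and 227 in Vcl. Srf has a pair of boxes, 82 and 62 bases before its start, and the boxes of Acta2 begin 84 and 34 bases before. A match of letters is a description of the window and not a site of binding. Among the carriers of the strict box, the log2 fold change of day 8 against day 0 ran from -3.78 for Myl9 to 0.06 for Srf, so members that share the box differed widely in how their footprints changed.

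At day 4, 30 of the 34 members were lower than at day 0, 1 was higher (Actn3) and 3 did not pass the test (Vim, Des and Srf), with the quasi-likelihood test of edgeR and a Benjamini-Hochberg adjusted p under 0.05 over all tested genes. Of all tested genes, 28.4% were called lower and 29.8% higher in that comparison. At day 8 against day 0, 32 members were lower, 1 was higher (Des) and 1 was not called (Srf), where 33.5% of all tested genes were lower and 34.2% higher. At day 8 against day 4, 8 members were lower, 3 were higher and 23 were not called, where 17.1% of all tested genes were lower and 14.7% higher. The median log2 fold change of the members was -1.78 at day 4 against day 0, -2.29 at day 8 against day 0 and -0.24 at day 8 against day 4, and that of all tested genes was -0.02, -0.01 and -0.02. Without day 4 replicate 2 and day 8 replicate 3, 31 members were lower and 1 higher at day 4 than at day 0, 32 and 1 at day 8 than at day 0, and 9 and 3 at day 8 than at day 4. Of all tested genes in that fit, 33.3% were lower and 33.3% higher at day 4 than at day 0. The shares were 35.2% and 35.6% at day 8 against day 0, and 19.9% and 16.6% at day 8 against day 4. Changes of single genes are given below as fitted folds with the log2 fold change ± its standard error (SE) and the adjusted p of the fit to all 9 libraries. The 3 comparisons share libraries with each other and are not independent. All day 4 libraries lay below all day 0 libraries in 30 members, and all day 8 libraries did so in 32. Of all tested genes, 32.8% were separated in this way at day 4 and 38.2% at day 8, so such separation was common.

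**Figure D1:**
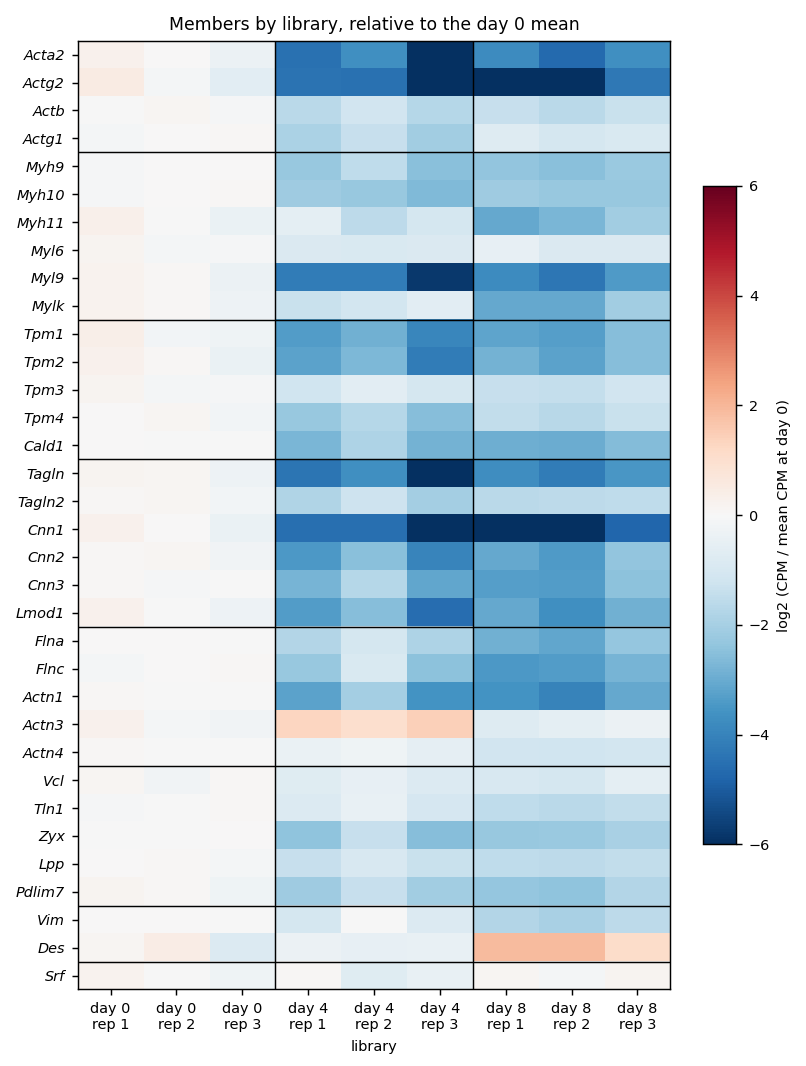
Level of each of the 34 members in each of the 9 libraries as log2 of its CPM over its mean CPM at day 0, with members in rows by role and libraries in columns by day. The colour scale ends at -6 and 6, and values beyond -6, such as Cnn1 in day 4 replicate 3, share the darkest blue. Most rows are blue at both later days, Actn3 is red at day 4, and Des is red at day 8.

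Together the members took 3.27%, 3.14% and 2.76% of all counts in the day 0 libraries, 0.718%, 1.15% and 0.661% at day 4, and 0.685%, 0.609% and 0.777% at day 8. All later libraries were below all day 0 libraries, and day 4 replicate 2 stood above every other later library. The means were 3.05 ± 0.266% at day 0, 0.844 ± 0.269% at day 4 and 0.690 ± 0.0842% at day 8 (SD, n = 3 each). Actb, Vim and Myh9 made up 47.1% of the member counts; without them the share was 1.78% at day 0, 0.360% at day 4 and 0.310% at day 8.

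Actins form the filament itself. All 4 actin members were lower at day 4 and at day 8 than at day 0. Acta2 (ENSMUSG00000035783), smooth muscle alpha-actin and a marker of contractile myofibroblasts, had 4084, 3451 and 2613 CPM at day 0, 154, 262 and 41.7 CPM at day 4, and 247, 136 and 263 CPM at day 8. The later libraries were all far below the day 0 libraries, and day 4 replicate 3 was the lowest of all. Acta2 was 22.2-fold lower at day 4 than at day 0 (log2 -4.47 ± 0.60, adjusted p = 0.000158) and 15.7-fold lower at day 8 than at day 0 (log2 -3.98 ± 0.59, adjusted p = 0.000208). Without day 4 replicate 2 the log2 value at day 4 was -5.10.

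Actg2 (ENSMUSG00000059430), gamma-actin of enteric smooth muscle, had 181, 119 and 82.5 CPM at day 0, 5.84, 5.70 and 0.705 CPM at day 4, and 1.45, 0.936 and 6.61 CPM at day 8. Its day 8 libraries spread widely, with replicate 3 above both others, but none came near day 0. It was 31.2-fold lower at day 4 than at day 0 (log2 -4.96 ± 0.82, adjusted p = 0.000599) and 42.6-fold lower at day 8 (log2 -5.41 ± 0.85, adjusted p = 0.000303). Without day 8 replicate 3 the day 8 log2 value was -6.73. Actb (ENSMUSG00000029580), the beta-actin of all cells that is often used as a constant reference, had 5306, 5816 and 5102 CPM at day 0, 1762, 2404 and 1671 CPM at day 4, and 2064, 1781 and 2173 CPM at day 8. It was not constant here. Actb was 2.78-fold lower at day 4 than at day 0 (log2 -1.47 ± 0.18, adjusted p = 9.14e-05) and 2.70-fold lower at day 8 (log2 -1.43 ± 0.18, adjusted p = 7.99e-05), with no overlap between the later libraries and day 0. Actg1, cytoplasmic gamma-actin, had 14.3, 15.4 and 16.4 CPM at day 0, 4.19, 5.97 and 3.61 CPM at day 4, and 8.99, 7.35 and 8.03 CPM at day 8. It was 3.35-fold lower at day 4 than at day 0 (log2 -1.74 ± 0.19, adjusted p = 4e-05) and 1.89-fold lower at day 8 (log2 -0.92 ± 0.18, adjusted p = 0.00136), and its fitted day 8 level was 1.77-fold higher than that of day 4. The coding sequences of actins are close to identical and have many processed copies in the genome, and how reads that map to several places were counted is not given in the sources used here, so actin counts, above all those of Actg1, are uncertain. The copies with an Actb or Actg name, Actb-ps1 and Actg-ps1, held 173 and 70 counts over all 9 libraries.

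Myosin II is the motor: a pair of heavy chains with essential and regulatory light chains, switched on when myosin light chain kinase phosphorylates the regulatory chain. All 6 genes of this group were lower at both later days than at day 0, from 1.84-fold for Myl6 to 23.5-fold for Myl9 at day 4. Myh9 (ENSMUSG00000022443), the heavy chain of non-muscle myosin IIA, had 3192, 3334 and 3372 CPM at day 0, 685, 1149 and 577 CPM at day 4, and 636, 572 and 715 CPM at day 8. Day 4 replicate 2 was the highest later library and still below the lowest day 0 library. Myh9 was 4.11-fold lower at day 4 than at day 0 (log2 -2.04 ± 0.24, adjusted p = 7.42e-05) and 5.15-fold lower at day 8 (log2 -2.36 ± 0.25, adjusted p = 2.32e-05). Myh10, the heavy chain of non-muscle myosin IIB, had 390.0, 415 and 428 CPM at day 0, 92.3, 83.8 and 65.7 CPM at day 4, and 94.0, 85.9 and 84.4 CPM at day 8. Its libraries agreed closely within each day, and it was 5.10-fold lower at day 4 than at day 0 (log2 -2.35 ± 0.14, adjusted p = 8.51e-07) and 4.67-fold lower at day 8 (log2 -2.22 ± 0.14, adjusted p = 1.17e-06).

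The smooth muscle heavy chain and the kinase took another course, with a step down between day 4 and day 8. Myh11 (ENSMUSG00000018830), smooth muscle myosin heavy chain, had 32.7, 25.8 and 20.0 CPM at day 0, 17.6, 8.81 and 12.7 CPM at day 4, and 3.15, 3.96 and 6.13 CPM at day 8. It was 2.01-fold lower at day 4 than at day 0 (log2 -1.01 ± 0.30, adjusted p = 0.0152) and 5.93-fold lower at day 8 (log2 -2.57 ± 0.32, adjusted p = 6.75e-05), and 2.95-fold lower at day 8 than at day 4 (log2 -1.56 ± 0.31, adjusted p = 0.00545). The day 4 call was lost without day 0 replicate 1 (log2 -0.80, adjusted p = 0.0684). Mylk (ENSMUSG00000022836), myosin light chain kinase, had 149, 136 and 105 CPM at day 0, 51.6, 61.2 and 82.9 CPM at day 4, and 15.5, 15.6 and 30.7 CPM at day 8. No library of one day overlapped with another day, and day 8 replicate 3 was the highest of its day. Mylk was 1.99-fold lower at day 4 than at day 0 (log2 -0.99 ± 0.28, adjusted p = 0.0118) and 6.29-fold lower at day 8 (log2 -2.65 ± 0.29, adjusted p = 3.47e-05), and 3.17-fold lower at day 8 than at day 4 (log2 -1.66 ± 0.29, adjusted p = 0.00285).

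The light chains sat at the ends of the group. Myl9 (ENSMUSG00000067818), the regulatory light chain of smooth muscle and stress fibre myosin, had 706, 651 and 482 CPM at day 0, 33.5, 33.5 and 11.1 CPM at day 4, and 44.5, 30.5 and 58.9 CPM at day 8. Myl9 was 23.5-fold lower at day 4 than at day 0 (log2 -4.56 ± 0.44, adjusted p = 1.81e-05) and 13.7-fold lower at day 8 (log2 -3.78 ± 0.42, adjusted p = 3.58e-05). Myl6, the essential light chain shared by smooth and non-muscle myosin, had 144, 119 and 123 CPM at day 0, 70.5, 69.2 and 69.6 CPM at day 4, and 91.0, 71.2 and 70.5 CPM at day 8. Myl6 was 1.84-fold lower at day 4 than at day 0 (log2 -0.88 ± 0.12, adjusted p = 0.000206) and 1.66-fold lower at day 8 (log2 -0.73 ± 0.12, adjusted p = 0.000494).

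Tropomyosins lie along the actin filament and decide which proteins may bind it, and caldesmon holds back the myosin ATPase on tropomyosin-coated filaments. All 5 genes were lower at both later days than at day 0. Tpm1 (ENSMUSG00000032366), whose products include the long tropomyosins of muscle and stress fibres, had 1365, 942 and 895 CPM at day 0, 106, 143 and 70.8 CPM at day 4, and 121, 107 and 179 CPM at day 8. Tpm1 was 10.0-fold lower at day 4 than at day 0 (log2 -3.32 ± 0.31, adjusted p = 1.47e-05) and 7.87-fold lower at day 8 (log2 -2.98 ± 0.30, adjusted p = 2.1e-05). Tpm2, beta-tropomyosin, had 856, 737 and 538 CPM at day 0, 76.8, 110.2 and 38.9 CPM at day 4, and 99.3, 77.2 and 120.3 CPM at day 8. Its log2 fold change was -3.24 ± 0.36 at day 4 and -2.84 ± 0.36 at day 8 against day 0. Cald1, caldesmon, had 1435, 1390.4 and 1383 CPM at day 0, 208, 384 and 196 CPM at day 4, and 187, 177 and 228 CPM at day 8. The log2 fold changes of Cald1 were -2.42 ± 0.25 and -2.83 ± 0.25 against day 0, with no overlap between later libraries and day 0.

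The tropomyosin genes best known for short, non-muscle isoforms had smaller fitted differences from day 0 than Tpm1 and Tpm2. Tpm4 had 292, 305 and 257 CPM at day 0, 59.7, 88.1 and 48.4 CPM at day 4, and 104, 90.3 and 111 CPM at day 8. Tpm4 was 4.34-fold lower at day 4 than at day 0 (log2 -2.12 ± 0.20, adjusted p = 1.85e-05) and 2.79-fold lower at day 8 (log2 -1.48 ± 0.20, adjusted p = 0.000117). Tpm3 had 46.9, 39.1 and 40.2 CPM at day 0, 18.4, 26.8 and 20.0 CPM at day 4, and 16.1, 15.7 and 19.1 CPM at day 8. Tpm3 was 1.94-fold lower at day 4 than at day 0 (log2 -0.95 ± 0.15, adjusted p = 0.000524) and 2.48-fold lower at day 8 (log2 -1.31 ± 0.16, adjusted p = 5.4e-05). Both genes had no overlap between later libraries and day 0. Counts per gene do not tell apart the isoforms that each tropomyosin gene makes.

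Calponins and the related transgelins bind along the filament and stiffen bundles of it, and leiomodin 1 starts new filaments in smooth muscle. These 6 genes were all lower at both later days than at day 0, and the smooth muscle members of the families had the largest differences. Cnn1 (ENSMUSG00000001349), the calponin of differentiated smooth muscle, had 171, 146 and 109 CPM at day 0, 6.14, 6.25 and 0.338 CPM at day 4, and 1.65, 0.989 and 5.24 CPM at day 8. It was the member with the largest difference, 33.5-fold lower at day 4 than at day 0 (log2 -5.07 ± 0.83, adjusted p = 0.000536) and 54.2-fold lower at day 8 (log2 -5.76 ± 0.86, adjusted p = 0.000225). Day 4 replicate 3 lay far below the other day 4 libraries and day 8 replicate 3 above the other day 8 libraries; without the second of these the day 8 log2 fold change was -6.74. Cnn2 had 396, 401 and 320.4 CPM at day 0, 33.8, 66.2 and 24.1 CPM at day 4, and 43.7, 35.8 and 72.0 CPM at day 8. Cnn2 had log2 fold changes of -3.17 ± 0.38 at day 4 and -2.88 ± 0.38 at day 8 against day 0. Cnn3, the acidic calponin of non-muscle cells, had 436, 401 and 407 CPM at day 0, 59.3, 125 and 48.1 CPM at day 4, and 42.5, 41.3 and 75.1 CPM at day 8. Those of Cnn3 were -2.42 ± 0.36 and -2.97 ± 0.37. Both genes, like Cnn1, were highest in day 4 replicate 2 and in day 8 replicate 3 of their days.

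Tagln (ENSMUSG00000032085), also called SM22, an early marker of smooth muscle, had 1551, 1509.9 and 1129.8 CPM at day 0, 66.4, 108 and 20.4 CPM at day 4, and 107, 75.7 and 126 CPM at day 8. It was 21.5-fold lower at day 4 than at day 0 (log2 -4.43 ± 0.53, adjusted p = 7.41e-05) and 13.6-fold lower at day 8 (log2 -3.77 ± 0.51, adjusted p = 0.00012). Its relative Tagln2, which many non-muscle cells express, had 306, 318 and 262 CPM at day 0, 85.5, 126 and 70.8 CPM at day 4, and 97.3, 99.2 and 104 CPM at day 8. Tagln2 was 3.14-fold lower at day 4 than at day 0 (log2 -1.65 ± 0.19, adjusted p = 6.41e-05) and 2.95-fold lower at day 8 (log2 -1.56 ± 0.19, adjusted p = 6.53e-05). Lmod1, leiomodin 1, had 56.5, 45.5 and 38.5 CPM at day 0, 4.65, 8.04 and 2.00 CPM at day 4, and 5.67, 3.66 and 6.30 CPM at day 8. Lmod1 had log2 fold changes of -3.26 ± 0.42 at day 4 and -3.17 ± 0.42 at day 8 against day 0. None of these genes had a later library that reached the day 0 range. The same held for 32.8% of all tested genes at day 4 and 38.2% at day 8.

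**Figure D2:**
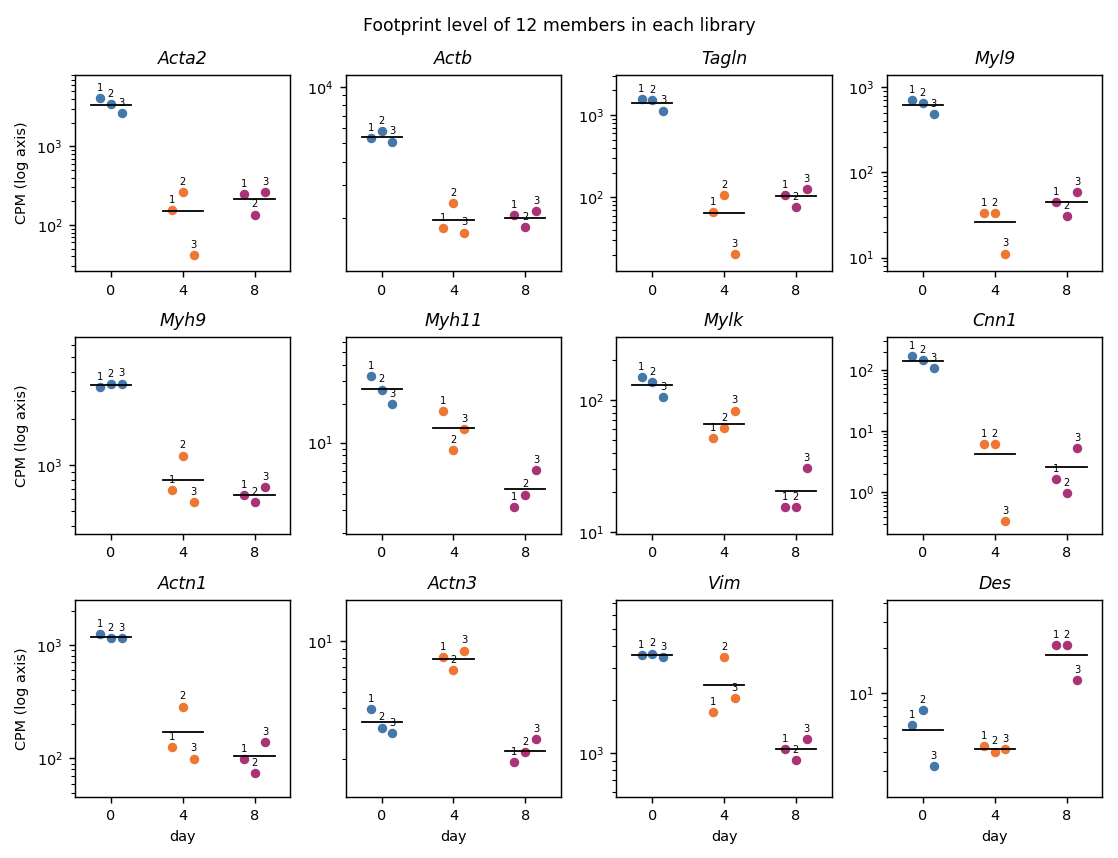
CPM of 12 members in each library on a log axis against day, with replicate numbers beside the points and bars at the arithmetic mean of the 3 libraries. Acta2, Tagln, Myl9, Cnn1 and Actn1 lie far below day 0 at both later days, Myh11 and Mylk are lower at each later day than at the day before it, Actn3 is highest at day 4, and Des is highest at day 8.

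Filamins join crossing filaments and alpha-actinins join parallel ones, and both link filaments to adhesions. Of these 5 genes, 4 were lower at day 4 than at day 0 and 1, Actn3, was higher; all 5 were lower at day 8 than at day 0. Flna (ENSMUSG00000031328), filamin A, had 1218, 1218 and 1166 CPM at day 0, 358, 585 and 328 CPM at day 4, and 164, 139 and 242 CPM at day 8. Flna was 2.83-fold lower at day 4 than at day 0 (adjusted p = 0.000661) and 6.61-fold lower at day 8 (log2 -2.73 ± 0.27, adjusted p = 1.56e-05). Flnc, the filamin best known from muscle, had 389, 421 and 436 CPM at day 0, 85.3, 222 and 75.9 CPM at day 4, and 37.9, 41.2 and 59.8 CPM at day 8. Flnc was 3.25-fold lower at day 4 than at day 0 (log2 -1.70 ± 0.37, adjusted p = 0.00301) and 8.96-fold lower at day 8 (log2 -3.16 ± 0.39, adjusted p = 6.85e-05). In both genes day 4 replicate 2 was the highest of its day, and without it the day 4 log2 fold change of Flnc was -2.36.

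Alpha-actinins differed among themselves. Actn1 (ENSMUSG00000015143), the alpha-actinin of stress fibres and adhesions, had 1239.7, 1151 and 1151 CPM at day 0, 126, 286 and 99.8 CPM at day 4, and 99.3, 73.9 and 139 CPM at day 8. Actn1 was 6.92-fold lower at day 4 than at day 0 (log2 -2.79 ± 0.38, adjusted p = 0.00018) and 11.3-fold lower at day 8 (log2 -3.50 ± 0.40, adjusted p = 3.84e-05). Without day 4 replicate 2 the day 4 log2 value of Actn1 was -3.38. Actn4, the other non-muscle alpha-actinin, had 762, 723 and 716 CPM at day 0, 557, 608 and 507 CPM at day 4, and 328, 322 and 337 CPM at day 8. It was 1.32-fold lower at day 4 than at day 0 (log2 -0.40 ± 0.11, adjusted p = 0.0112), a call that was lost without day 4 replicate 3 (log2 -0.33, adjusted p = 0.0534). At day 8 it was 2.23-fold lower (log2 -1.16 ± 0.11, adjusted p = 1.49e-05). Actn3 (ENSMUSG00000006457), the alpha-actinin of fast skeletal muscle fibres, had 3.96, 3.06 and 2.84 CPM at day 0, 8.03, 6.71 and 8.83 CPM at day 4, and 1.90, 2.19 and 2.60 CPM at day 8. Its day 4 libraries were all above all others, at a low level: it was 2.39-fold higher at day 4 than at day 0 (log2 1.26 ± 0.20, adjusted p = 0.00047). At day 8 it was 1.47-fold lower than at day 0 (log2 -0.56 ± 0.21, adjusted p = 0.0344). That call was lost without day 0 replicate 1, day 8 replicate 1 or day 8 replicate 2 (adjusted p = 0.14, 0.122 and 0.0886). The 15 skeletal and cardiac muscle markers listed beside it summed to 1.37 to 1.77 CPM at day 0, 0.494 to 1.24 CPM at day 4 and 0.840 to 1.36 CPM at day 8, with Myod1 and Myh6 at 0 in all libraries. Their summed level was not higher at day 4, where Actn3 was. Only 1 of the 15, Mylpf, passed the filter on low counts, so this comparison rests on very low counts.

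Adhesion and stress fibre proteins tie the filaments to integrins. All 5 were lower at both later days than at day 0, with log2 fold changes from -2.13 for Zyx to -0.86 for Vcl at day 8. Vcl (ENSMUSG00000021823), vinculin, which is recruited to adhesions under tension, had 893, 700.5 and 874 CPM at day 0, 499.8, 588 and 465 CPM at day 4, and 420.2, 389.9 and 551 CPM at day 8. Vcl was 1.59-fold lower at day 4 than at day 0 (log2 -0.67 ± 0.17, adjusted p = 0.00689) and 1.81-fold lower at day 8 (log2 -0.86 ± 0.17, adjusted p = 0.00131). Tln1, talin 1, which connects integrins to actin, had 813, 837 and 905 CPM at day 0, 485, 629 and 417 CPM at day 4, and 296, 279 and 309.7 CPM at day 8. Tln1 had log2 fold changes of -0.74 ± 0.15 at day 4 and -1.53 ± 0.16 at day 8 against day 0. Zyx (ENSMUSG00000029860), zyxin, which repairs strained stress fibres, had 376, 375 and 383 CPM at day 0, 71.0, 143 and 64.3 CPM at day 4, and 77.2, 81.9 and 99.2 CPM at day 8. Zyx was 4.07-fold lower at day 4 than at day 0 (log2 -2.02 ± 0.27, adjusted p = 0.000161) and 4.39-fold lower at day 8 (log2 -2.13 ± 0.27, adjusted p = 8.5e-05). Lpp, a LIM protein related to zyxin, averaged 353 ± 24.0 CPM at day 0, 152 ± 24.2 CPM at day 4 and 123 ± 3.94 CPM at day 8 (SD, n = 3 each). Its log2 fold changes against day 0 were -1.22 ± 0.13 and -1.52 ± 0.13. Pdlim7, a PDZ and LIM adaptor on filaments, averaged 126 ± 19.4 CPM at day 0, 35.6 ± 11.0 CPM at day 4 and 29.0 ± 7.36 CPM at day 8 (SD, n = 3 each), with log2 fold changes of -1.83 ± 0.24 and -2.12 ± 0.24.

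Intermediate filaments are a separate network, and their 2 genes here went opposite ways. Vim (ENSMUSG00000026728), vimentin of mesenchymal cells, had 3570.1, 3639 and 3456 CPM at day 0, 1698, 3488 and 2041 CPM at day 4, and 1049.7, 909 and 1193 CPM at day 8. Day 4 replicate 2 was within the day 0 range, and the other day 4 libraries were well below it. The day 4 difference did not pass the test (log2 -0.56 ± 0.25, adjusted p = 0.0764), and did without day 4 replicate 2 (log2 -0.92, adjusted p = 0.000228). At day 8 Vim was 3.38-fold lower than at day 0 (log2 -1.76 ± 0.25, adjusted p = 0.000185). Des (ENSMUSG00000026208), desmin of muscle cells and pericytes, had 6.09, 7.71 and 3.23 CPM at day 0, 4.42, 4.05 and 4.20 CPM at day 4, and 21.0, 20.9 and 12.2 CPM at day 8. All day 8 libraries were above all others. Des was 3.18-fold higher at day 8 than at day 0 (log2 1.67 ± 0.30, adjusted p = 0.000795) and 4.27-fold higher at day 8 than at day 4 (log2 2.09 ± 0.31, adjusted p = 0.00144). At day 4 against day 0 it was not called (log2 -0.42 ± 0.31, adjusted p = 0.263), and it was called lower without day 0 replicate 3 (log2 -0.71, adjusted p = 0.0417).

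Srf (ENSMUSG00000015605), the transcription factor, had 15.9, 13.4 and 11.4 CPM at day 0, 14.2, 8.12 and 10.0 CPM at day 4, and 14.7, 12.4 and 15.2 CPM at day 8, and its days overlapped. It was called in none of the 3 comparisons with edgeR. The values were log2 -0.33 ± 0.21, adjusted p = 0.202 at day 4 against day 0, log2 0.06 ± 0.21, adjusted p = 0.818 at day 8 against day 0, and log2 0.39 ± 0.21, adjusted p = 0.185 at day 8 against day 4. Without day 4 replicate 1 it was called lower at day 4 than at day 0 (log2 -0.58, adjusted p = 0.0262) and higher at day 8 than at day 4 (log2 0.64, adjusted p = 0.0277).

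**Figure D3:**
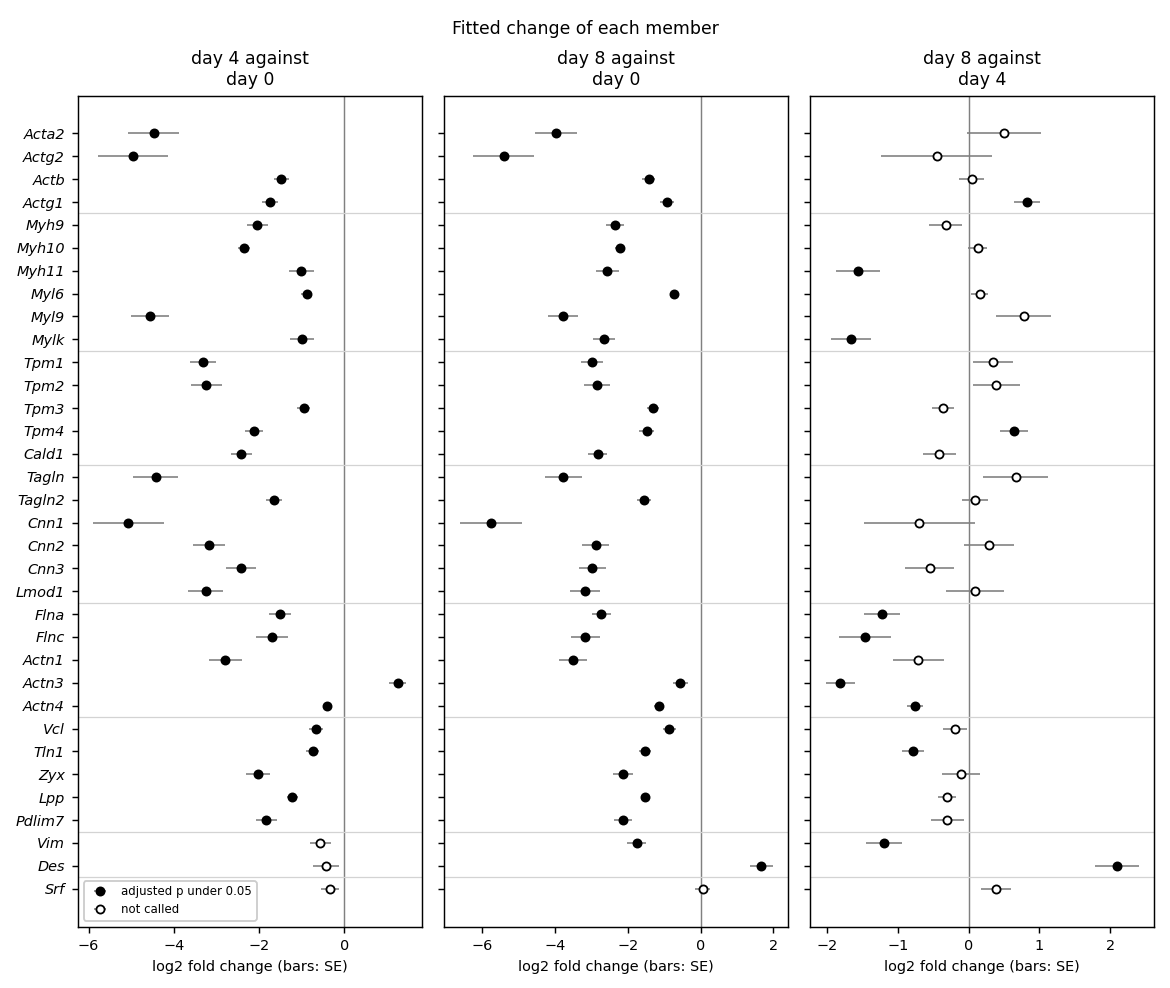
Fitted log2 fold change of each member in the 3 comparisons, with the later day on top of each ratio, grouped by role from actins at the top to Srf at the bottom. Bars are standard errors, filled points have an adjusted p under 0.05 and open points do not; in day 8 against day 4 most points are open.

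The 8 members called lower at day 8 than at day 4 were Myh11, Mylk, Flna, Flnc, Actn3, Actn4, Tln1 and Vim. Flna was 2.33-fold lower (log2 -1.22 ± 0.25, adjusted p = 0.00638), Actn3 3.52-fold lower (log2 -1.81 ± 0.21, adjusted p = 0.000455) and Actn4 1.69-fold lower (log2 -0.76 ± 0.11, adjusted p = 0.00134). Tln1 was 1.73-fold lower (log2 -0.79 ± 0.15, adjusted p = 0.00497) and Vim 2.29-fold lower (log2 -1.20 ± 0.25, adjusted p = 0.00686). Actn1 was not called (log2 -0.71 ± 0.36, adjusted p = 0.158). Cnn3 was not called (log2 -0.55 ± 0.34, adjusted p = 0.248), and was the ninth lower member when day 4 replicate 2 and day 8 replicate 3 were both left out (log2 -0.36, adjusted p = 0.0269). Flnc was 2.76-fold lower (log2 -1.46 ± 0.37, adjusted p = 0.0154); the call was lost without day 8 replicate 1 or 2 (adjusted p = 0.0636 and 0.0593), and without day 4 replicate 2 its log2 fold change was -0.80.

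The 3 members called higher at day 8 than at day 4 were Des, Actg1 and Tpm4. For Actg1 the value was log2 0.82 ± 0.19 (adjusted p = 0.00997). Tpm4 was 1.56-fold higher (log2 0.64 ± 0.20, adjusted p = 0.0341). Its call was lost on leaving out any 1 library other than day 0 replicate 3 and day 4 replicate 2 (adjusted p = 0.0513 to 0.096). The count of 3 was 7 without day 4 replicate 2, when Tagln (1.24), Tagln2 (0.36), Cnn2 (0.80) and Zyx (0.35) also passed the test, values in parentheses being log2 fold changes. Of all tested genes, 14.4% were called higher in that fit and 14.7% with all libraries. In the fit to all libraries, smooth muscle genes with large differences from day 0 had wide errors at day 8 against day 4. Acta2 had a log2 fold change of 0.49 ± 0.52, Cnn1 of -0.70 ± 0.79 and Myl9 of 0.78 ± 0.38, and none of the 3 was called.

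Count ratios of related members within a library do not depend on how libraries were scaled. For 10 pairs, an exact permutation test of the log2 ratio over all 1680 arrangements of the libraries in 3 groups asked whether the ratio differed among the days. The smallest possible p was 0.00357, with Benjamini-Hochberg adjustment over the 10 pairs, and 8 passed. The pairs were drawn from members chosen with earlier results of these data known, so the number that passed describes these pairs alone. A ratio compares the changes of a pair and not their levels, since counts also depend on gene length. Acta2/Actb was 0.770, 0.593 and 0.512 at day 0, 0.0876, 0.109 and 0.0250 at day 4, and 0.120, 0.0761 and 0.121 at day 8 (adjusted p = 0.0298 by the exact test). Smooth muscle actin counts were thus reduced against beta-actin counts, which were themselves lower, in all later libraries. Tagln/Tagln2 was 5.06, 4.75 and 4.31 at day 0, 0.776, 0.854 and 0.289 at day 4, and 1.10, 0.763 and 1.21 at day 8 (exact test, adjusted p = 0.0214). Tpm1/Tpm4 was 4.68, 3.09 and 3.49 at day 0, 1.78, 1.63 and 1.46 at day 4, and 1.17, 1.18 and 1.61 at day 8 (exact test, adjusted p = 0.0214). In each of these pairs the member of smooth muscle or long-isoform type fell further than its non-muscle relative.

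Other pairs moved otherwise. Actn4/Actn1 was 0.615, 0.628 and 0.622 at day 0, 4.41, 2.13 and 5.08 at day 4, and 3.30, 4.35 and 2.42 at day 8 (exact test, adjusted p = 0.0357, and 0.051 without day 8 replicate 3). The ratio was higher in all later libraries than in all day 0 libraries. Tpm3/Tpm4 was 0.161, 0.128 and 0.157 at day 0, 0.308, 0.304 and 0.412 at day 4, and 0.155, 0.174 and 0.172 at day 8 (exact test, adjusted p = 0.0214), so it was high at day 4 alone. Vim/Actb, likewise high at day 4, was 0.673, 0.626 and 0.677 at day 0, 0.964, 1.45 and 1.22 at day 4, and 0.508, 0.511 and 0.549 at day 8 (exact test, adjusted p = 0.0179). Actg1/Actb had an adjusted p of 0.0179 by the exact test, with a mean log2 ratio 0.51 higher at day 8 than at day 0. Cnn1/Cnn3 passed with an adjusted p of 0.0446 by the exact test, and passed in only 2 of the 9 tests that left out 1 library, those without day 4 replicate 1 or day 4 replicate 3. Myh10/Myh9 and Flnc/Flna did not pass (exact test, adjusted p = 0.282 and 0.27); the first passed without day 4 replicate 1 (adjusted p = 0.0204) and the second without day 4 replicate 2 (adjusted p = 0.0357).

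**Figure D4:**
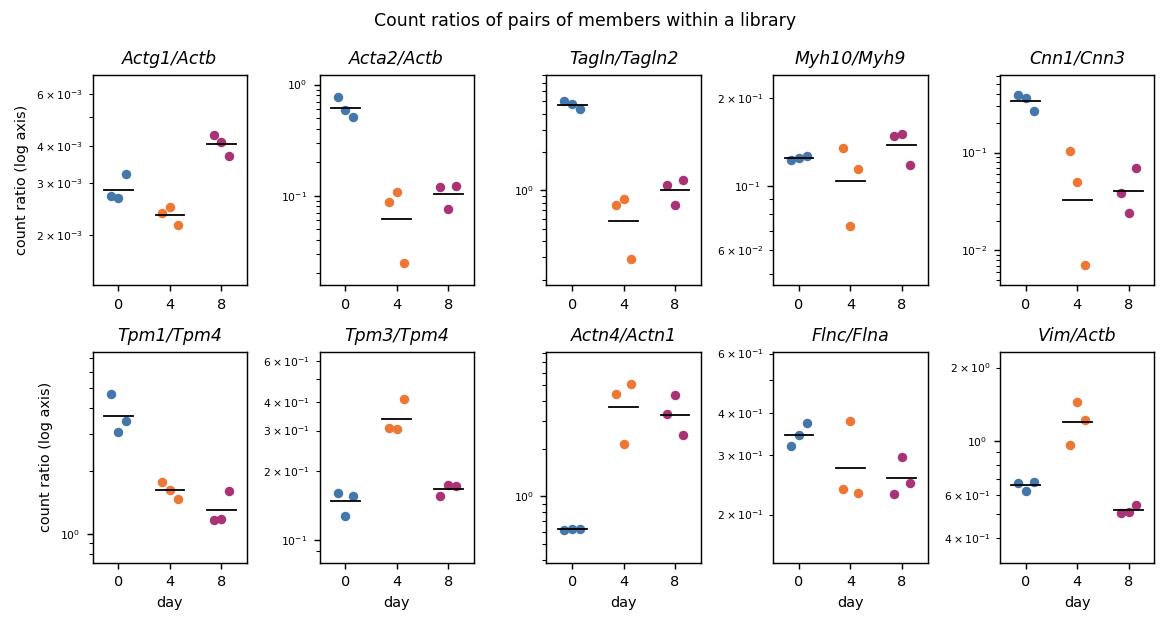
Ratio of raw counts of 2 members within a library, on log axes, for 10 pairs against day, with bars at the geometric mean of the 3 libraries. Acta2/Actb, Tagln/Tagln2, Cnn1/Cnn3 and Tpm1/Tpm4 are highest at day 0, Actn4/Actn1 is lowest at day 0, and Tpm3/Tpm4 and Vim/Actb are highest at day 4.

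Libraries of one day differed more in these genes than in the median gene once the cells were induced. The median coefficient of variation of the members was 10.3% at day 0, 33.4% at day 4 and 20.4% at day 8, and over all tested genes it was 10.5%, 18.4% and 12.5%. At day 4 replicate 2 was the highest library in 25 of the 34 members (in 39.9% of all tested genes) and replicate 3 the lowest in 24 (24.7%). At day 8 replicate 3 was the highest in 30 members (41.5%) and replicate 2 the lowest in 25 (33.8%). At day 0 replicate 1 was the highest in 20 members (33.3%) and replicate 3 the lowest in 24 (32.6%). Within a day the members thus tended to be high or low in the same library. The widest gaps were those of Cnn1, 18.5-fold between the highest and the lowest day 4 library, Actg2 (8.29-fold), Acta2 (6.28-fold) and Tagln (5.27-fold), whereas Myl6 differed by 1.02-fold among day 4 libraries. Day 4 replicate 2 and day 8 replicate 3 also had the most preadipocyte marker counts of their day. Day 4 replicate 2 had 1822 CPM against 797 and 905 CPM, and day 8 replicate 3 had 728 CPM against 531 and 540.3 CPM. The part of this in the spread of the members was not tested.

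Related genes were counted from lists that had been chosen with earlier results of these data known, and their counts stand against the 28.4% lower and 29.8% higher of all tested genes at day 4 and the 33.5% and 34.2% at day 8 against day 0. Of 19 tested other targets of MRTF and SRF, 16 were lower and 1 higher at day 4 than at day 0, and 18 and 1 at day 8 than at day 0, with median log2 fold changes of -2.62 and -2.79. Among the lower ones, Synpo, synaptopodin of stress fibres, had 11.1, 8.93 and 15.5 CPM at day 8, against 111, 104 and 104 CPM at day 0 (log2 -3.17 ± 0.26, adjusted p = 5.12e-06). Filip1l and the filament protein Nexn had log2 fold changes of -3.09 and -2.23 at day 8 against day 0. The 1 gene that was higher, Fhl1, a LIM-only protein of muscle, had 85.4, 67.5 and 53.4 CPM at day 0, 347, 172 and 336 CPM at day 4, and 138, 121 and 145 CPM at day 8. It was called higher at day 4 (log2 2.05 ± 0.27, adjusted p = 0.000123) and at day 8 (log2 0.97 ± 0.26, adjusted p = 0.0073) than at day 0.

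Of 23 regulators of SRF and myosin, 10 (43.5%) were lower and 5 (21.7%) higher at day 4 than at day 0, and 14 (60.9%) and 4 (17.4%) at day 8 than at day 0. Of all tested genes, 28.4% and 33.5% were lower and 29.8% and 34.2% higher at these days. Whether the list differs from these shares was not tested. Mrtfa, the actin-sensing partner of SRF, had 58.7, 62.8 and 62.4 CPM at day 0, 29.5, 36.3 and 24.1 CPM at day 4, and 17.6, 18.5 and 19.5 CPM at day 8. It was lower at day 4 (log2 -1.03 ± 0.14, adjusted p = 0.00015) and at day 8 (log2 -1.73 ± 0.14, adjusted p = 5.3e-06) than at day 0. Ppp1r12b, a targeting subunit of myosin phosphatase, had a log2 fold change of -1.51 at day 8 against day 0, and Rnd3 of -1.15. Dlc1, a GTPase-activating protein, had 78.5, 99.5 and 85.8 CPM at day 0, 836, 565 and 869.6 CPM at day 4, and 576, 661 and 535 CPM at day 8. Dlc1 was 8.61-fold higher at day 4 (log2 3.11 ± 0.19, adjusted p = 1.21e-06) and 6.72-fold higher at day 8 (log2 2.75 ± 0.19, adjusted p = 2.1e-06) than at day 0. Limk1, the kinase that inactivates cofilin, had 16.9, 16.3 and 15.5 CPM at day 0, 96.2, 36.0 and 68.1 CPM at day 4, and 59.3, 58.8 and 66.9 CPM at day 8, and was called higher at day 4 (log2 2.04) and at day 8 (log2 1.92). Elk4, another SRF partner, had a log2 fold change of 0.84 at day 8 against day 0.

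SRF also serves the immediate early genes through ternary complex factors. Of 9 such genes, 5 (55.6%) were lower and 2 (22.2%) higher at day 4 than at day 0, and 5 (55.6%) and 1 (11.1%) at day 8. Of all tested genes, 28.4% and 33.5% were lower and 29.8% and 34.2% higher at these days. Nr4a1, Egr1 and Junb had log2 fold changes of -2.79, -1.72 and -0.97 at day 8 against day 0, and Fos, the higher one, of 1.02 (adjusted p = 0.005). Of 18 focal adhesion proteins, 15 (83.3%) were lower and 1 (5.56%) was higher at each later day than at day 0. Fblim1, Parva and Tln2 had log2 fold changes of -2.68, -1.77 and -2.31 at day 8. Fermt2, kindlin 2, which helps talin activate integrins, had 242, 226 and 216 CPM at day 0, 161, 139 and 127 CPM at day 4, and 337, 341 and 330.1 CPM at day 8. It was lower at day 4 (log2 -0.68 ± 0.11, adjusted p = 0.000597) and higher at day 8 (log2 0.56 ± 0.11, adjusted p = 0.00139) than at day 0.

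Of 26 actin assembly factors, 19 (73.1%) were lower and 3 (11.5%) higher at day 4 than at day 0. At day 8 against day 0 the counts were 19 (73.1%) and 4 (15.4%). The median log2 fold changes were -0.54 and -0.58. Of all tested genes, 28.4% and 33.5% were lower and 29.8% and 34.2% higher at these days. Tmsb4x, thymosin beta 4, which stores actin monomers, had 1862, 1828 and 1522 CPM at day 0, 265, 355 and 224 CPM at day 4, and 229, 212 and 353 CPM at day 8, and a log2 fold change of -2.72 at day 8. Cttn and Pfn1, cortactin and profilin 1, had log2 fold changes of -2.05 and -1.11. Gsn, gelsolin, which severs and caps filaments, went the other way with 1461, 1269.7 and 1561 CPM at day 0, 23405, 16065 and 24116 CPM at day 4, and 3679, 4789 and 6771 CPM at day 8. Gsn was 14.8-fold higher at day 4 (log2 3.89 ± 0.29, adjusted p = 3.82e-06) and 3.55-fold higher at day 8 (log2 1.83 ± 0.27, adjusted p = 0.0002) than at day 0. Coro1b and Cfl2 had log2 fold changes of 1.02 and 0.59 at day 8. Of 12 other myosin genes, 8 (66.7%) were lower and 1 (8.33%) was higher at each later day than at day 0. The log2 fold change at day 8 was -1.47 for Myo9b and -1.38 for Myo1d. The higher one was Myh14, the heavy chain of non-muscle myosin IIC, with 0.183, 0.495 and 0.386 CPM at day 0, 4.68, 2.26 and 5.81 CPM at day 4, and 6.34, 4.09 and 6.80 CPM at day 8. Its level was low, and its log2 fold changes against day 0 were 3.57 ± 0.45 and 4.00 ± 0.45.

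At day 8 against day 4 fewer genes of these lists were called, and 17.1% of all tested genes were lower and 14.7% higher. Of the regulators 7 were lower and 4 higher, of the other MRTF and SRF targets 3 and 2, and of the immediate early genes 1 and 1. Of the focal adhesion proteins 5 were lower and 3 higher, of the assembly factors 6 and 1, and of the other myosins 2 and 1. Several of these shares were near those of all tested genes, such as 15.8% lower for the other MRTF and SRF targets and 17.4% higher for the regulators. Others lay further away, such as 30.4% lower for the regulators and 27.8% lower for the focal adhesion proteins. The assembly factors had 23.1% lower and 3.85% higher. These differences from all tested genes were not tested.

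**Figure D5:**
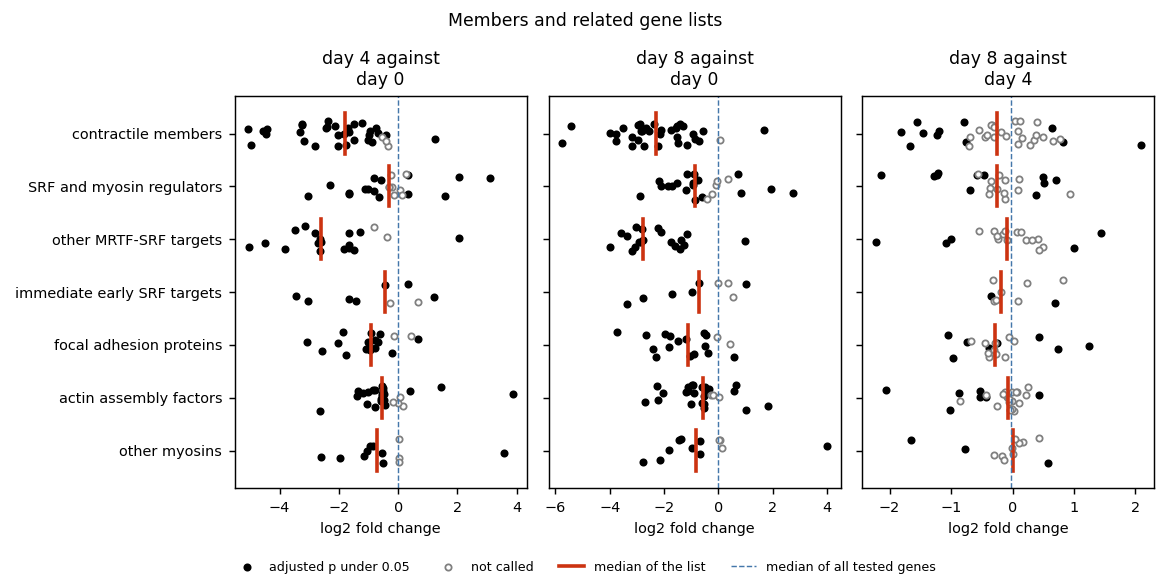
Log2 fold change of the members and of the tested genes of 6 related lists in the 3 comparisons, 1 point per gene, filled where the adjusted p is under 0.05. Red bars are list medians and dashed lines are medians of all tested genes; the members and the other MRTF and SRF targets have medians of -2.29 and -2.79 at day 8 against day 0.

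Acta2, Tagln, Cnn1, Myh11 and Des are also genes of mural cells, the smooth muscle cells and pericytes around vessels. A list of 8 other mural cell markers summed to 72.0 to 96.6 CPM at day 0, 137 to 163 CPM at day 4 and 136 to 154 CPM at day 8. Most of that sum came from Cspg4, Mcam and Notch3, and its members went different ways. Of 7 tested, 3 (42.9%) were higher (Cspg4, Mcam and Smtnl2) and 1 (14.3%) lower (Kcnj8) at day 4 than at day 0. At day 8 against day 0, 3 were higher (Cspg4, Notch3 and Smtnl2) and 1 lower (Kcnj8). Of all tested genes, 29.8% were higher and 28.4% lower at day 4, and 34.2% and 33.5% at day 8, against day 0. Cspg4 had 15.0, 14.7 and 17.4 CPM at day 0, 37.5, 28.5 and 36.8 CPM at day 4, and 80.5, 68.9 and 38.8 CPM at day 8, with its highest libraries at day 8, as in Des. Mcam had 37.4, 29.7 and 21.6 CPM at day 0, 71.8, 72.2 and 77.3 CPM at day 4, and 27.9, 21.8 and 23.2 CPM at day 8, so it was high at day 4 alone. The pericyte genes Rgs5 and Kcnj8 were at or under 0.487 CPM in all libraries. Kcnj8 was called lower at day 4 (adjusted p = 0.00098) and at day 8 (adjusted p = 0.003) than at day 0. Rgs5 and Abcc9 had log2 fold changes of -1.13 ± 0.73 and -0.97 ± 0.47 at day 8 against day 0 and were not called (adjusted p = 0.194 and 0.0925). Higd1b had at most 2 counts in any library of any day and was not tested. Pdgfrb was listed with the preadipocyte markers and not with these 8. It averaged 1587 CPM at day 0, 343 CPM at day 4 and 256 CPM at day 8, above the sum of the 8 in every library. It was called lower at day 4 (log2 -2.21 ± 0.30) and at day 8 (log2 -2.63 ± 0.30) than at day 0. The direction of the mural cell sum thus depends on where Pdgfrb is listed. Endothelial markers summed to 3.42 to 27.6 CPM and macrophage markers to 19.2 to 108 CPM over the 9 libraries. The highest library of each was at day 0, and day 4 libraries overlapped with day 0 in both. All day 8 libraries were below all day 0 libraries in both sums. Endothelial markers had 3.42 to 7.92 CPM at day 8 against 19.6 to 27.6 CPM at day 0, and macrophage markers 19.2 to 46.7 against 58.5 to 108 CPM. At day 8, 4 of 5 tested endothelial (80%) and 4 of 7 macrophage markers (57.1%) were called lower, against 33.5% of all tested genes. The summed fat cell markers were higher and the summed preadipocyte markers lower at both later days than at day 0. However, of the 7 preadipocyte markers 3 (42.9%) were called lower and 2 (28.6%) higher at day 4, and 4 (57.1%) lower at day 8. These counts stand against the shares of all tested genes given above. The part of the fat cell and preadipocyte markers in the members' changes was not tested.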

How the data were processed

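The authors deposited raw counts of ribosome footprints, 1 column per library. The submitters' processing notes name cutadapt, HISAT2, featureCounts and the build GRCm39. For versions, strand setting and reads with several positions, the sources used here give nothing. Per the labels' protocols, cells were lysed with cycloheximide, RNase I and then rRNA removal followed, and fragments of about 30 nucleotides were cut from a gel; cycloheximide and nuclease conditions can shift footprint counts between genes.

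Libraries were grouped by their titles. The members and all lists were chosen with earlier results of these data known. Genes with too few counts were removed with filterByExpr (minimum count 10), and the kept genes held at least 99.95% of each library. After TMM scaling, edgeR 4.0.16 in R 4.3.3 fitted group alone to all 9 libraries, with its quasi-likelihood test and Benjamini-Hochberg adjustment over 14714 genes. Fold changes are fitted values; SE is derived from the F statistic. All 34 members are named; of each related list, up to 3 genes per direction with the smallest adjusted p at day 8 against day 0 and a mean of at least 100 counts in the higher group, apart from 1 gene that is not reported here. No pair of libraries agreed within sampling noise. The steps were tested on simulated data. Alternatives were DESeq2 1.42.0, limma-voom (limma 3.58.1), glmTreat against a 1.5-fold change, other scalings and filters, only the groups compared, a replicate block, and each library left out. The fit without day 4 replicate 2 and day 8 replicate 3 was chosen after seeing the data. Several members have gene spans in the RefSeq table (GRCm38.p6) that overlap another gene. The overlapping genes with the most counts over all libraries were Pcsk7 with 5167 (Tagln 158711) and Ap3m1 with 4205 (Vcl 187994). Car9 had 689 (Tpm2 90157), Epha1 had 342 (Zyx 57638), and every other overlapping gene had at most 27.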

Additional observations from a re-analysis of the deposited data

How the results depend on the processing

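The counts of members lower and higher at day 4 and at day 8 than at day 0 stayed within 29 to 31 and 31 to 32 lower and 1 higher under the other scalings, filters and tests against no change, and on leaving out each library; glmTreat against a 1.5-fold change gave 25 and 30 lower. Of all tested genes, glmTreat called 14.8% and 21.1% lower in these comparisons. At day 8 against day 4 glmTreat gave 3 lower and 1 higher in place of 8 and 3, since it asks for a larger difference, and leaving out 1 library gave 2 to 7 higher. Of all tested genes, 3.89% were lower and 3.56% higher with glmTreat, and 8.26% to 15.2% higher on leaving out 1 library. The share of all counts was 1.78%, 0.360% and 0.310% at days 0, 4 and 8 without the 3 members with the highest counts, and 0.486% at day 8 with the 50 highest genes left out of the total, which hold 2 members. With replicate number as a replicate block 31 members were lower at day 8 than at day 0, in place of 32. No ratio passed with this block (0 of 10), where only 216 arrangements remain. The deviations of same-numbered libraries from their day means had correlations of -0.20 to 0.19. Differently numbered libraries were not compared, so whether the numbers pair the libraries was not tested. Values near 0 changed sign: Srf at day 8 against day 0 was -0.050 with upper quartile scaling, and Zyx at day 8 against day 4 was 0.022 with library totals and 0.23 without day 4 replicate 2 and day 8 replicate 3; the cause was not tested. Leaving out 1 library gave -0.055 to 0.20 for Srf at day 8 against day 0, and at day 8 against day 4 -0.056 to 0.22 for Actb, -0.52 to 0.021 for Myh9, -0.32 to 0.35 for Zyx, -0.080 to 0.36 for Tagln2, -0.00039 to 0.24 for Myh10, -0.29 to 0.65 for Lmod1 and -0.060 to 0.80 for Cnn2. Library totals moved the median log2 fold change of all genes by -0.15 at day 4 against day 0 and by 0.14 at day 8 against day 4, and upper quartile scaling by -0.13 and -0.11 for days 4 and 8 against day 0. With library totals 41.9% of calls at day 4 against day 0 were higher, in place of 51.2%, and 65.9% at day 8 against day 4, in place of 46.2%. Vim at day 4 against day 0 passed under upper quartile scaling, library totals, no filter, DESeq2 and voom (adjusted p = 0.0358, 0.0352, 0.0485, 0.0399 and 0.0454), and Actn3 at day 8 against day 0 did not pass under no filter, voom, a fit of only the groups compared or the block (adjusted p = 0.0653, 0.0529, 0.051 and 0.0535). Cnn1, Actg2, Actn3 and Myh14 had few counts in some libraries. The lowest were 12 for Cnn1 and 25 for Actg2, both in day 4 replicate 3, the library with the most counts in total (38994892). Actn3 had at least 68 counts, and Myh14 had 6 in day 0 replicate 1. The cause of the low counts was not tested.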
